A study of Mus musculus with 24 samples.

Results

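Border macrophages are the resident macrophages of the membranes and vessel sheaths that surround the spinal cord, and blood monocytes are the circulating cells that can enter those spaces. The 9 genes described here mark these cells: Mrc1, Cd163, Lyve1, Ms4a7, F13a1, Pf4 and Cbr2 for border macrophages, and Ccr2 and Ly6c2 for monocytes. They were chosen by name as the rows of the deposited count table with these symbols, which gave 9 of the 55418 genes in the table. The rule used names and no measured value, but it was set with earlier results of these data known. Total RNA came from the L4 to L6 spinal cord of adult C57BL/6J mice, 8 to 10 weeks old at the start. The design crossed genotype, drug and sex in 8 groups with 3 mice each, 24 cords in all.

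The groups were knockout with paclitaxel, knockout with vehicle, wild-type with paclitaxel and wild-type with vehicle, each in males and in females. The knockout lacked Chrna7, the gene of the α7 nicotinic acetylcholine receptor, in myeloid cells. No label names the Cre driver, or the alleles that the wild-type mice carried. Paclitaxel, a taxane that stabilises microtubules and can cause painful neuropathy, was injected 4 times at 1 mg/kg every other day. The controls received the vehicle, a mix of Kolliphor, ethanol and water. The cords were collected for RNA at day 7, counted from the start of injections. P-values over these samples measure the spread between mice.

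Chrna7 itself cannot check the knockout label in whole cord, since neurons also express it. It averaged 12.6 ± 1.61 CPM in knockout cords (SD, n = 12) and 13.6 ± 1.79 CPM in wild-type cords (n = 11), a log2 fold change of -0.11 with an adjusted p of 0.9997 (edgeR). Lyz2, the lysozyme of macrophages and neutrophils, averaged 18.99 ± 4.71 CPM in knockout cords and 39.5 ± 9.70 CPM in wild-type cords, and fell (log2 fold change -1.06 ± 0.13, SE, adjusted p = 0.00752).

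Cord tissue is mostly neurons and glia, and the macrophages of the parenchyma are microglia. Border macrophages sit outside the glial limit, along the meninges and in perivascular spaces, and take up material from fluid and blood through scavenger receptors. Monocytes that express Ccr2 leave the bone marrow in response to chemokines, and the Ly6c-high subset is the inflammatory type in mice. Some of the 9 also mark other cells: Lyve1 is made by lymphatic endothelium, and Pf4 by platelets.

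CPM below are counts divided by the library size after TMM scaling, and a fold change is the difference between groups on the log2 scale, with its standard error. The totals behind them were 88812295 to 112158154 counts per cord. One library, wild-type female paclitaxel replicate 3, had a spinal ganglion profile and is kept out of every comparison. Its ganglion neuron markers summed to 2999 CPM, against 48.4 to 101 CPM in the other 23, and its astrocyte markers to 169 CPM, against 4527 to 5424 CPM. All comparisons are therefore over 23 cords, 12 knockout and 11 wild-type, and its values are described at the end. All 9 genes passed the filter on low counts, which kept 25372 genes.

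By the ganglion neuron and astrocyte markers above, the other 23 libraries lay apart from the ganglion-like one. The L4 to L6 level was not tested. From library totals, Schwann cell markers summed to 118 to 347 CPM in these 23, and skeletal muscle markers to 0.672 to 31.9 CPM. Microglial Cx3cr1 and P2ry12 averaged 39.6 and 33.2 CPM. The 9 border macrophage and monocyte genes together summed to only 14.3 to 25.6 CPM per cord. In these whole-tissue counts, fewer cells of a type and less RNA per cell cannot be told apart.

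CPM per kilobase of exon were used to order the levels of the genes. The length takes in all annotated exons of a gene and may exceed that of the transcript present, so the order depends on it. Pf4, a chemokine of platelets and of border macrophages, was the highest at 1.34 ± 0.37 CPM per kb (SD, n = 23) and lay above Cd163 in 21 of 23 cords. Cd163 (0.828 CPM per kb), a receptor for haemoglobin bound to haptoglobin, Mrc1 (0.823 CPM per kb), the mannose receptor, and Cbr2 (0.811 CPM per kb), a carbonyl reductase, followed. They could not be ordered: Cd163 lay above Mrc1 in 13 of 23 cords, and Mrc1 above Cbr2 in 12. F13a1, the catalytic subunit of coagulation factor XIII, came next at 0.743 CPM per kb, below Cbr2 in 18 of 23 cords. Lyve1, a receptor for hyaluronan, was at 0.588 CPM per kb and lay below F13a1 in 22 cords.

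The monocyte genes and Ms4a7 were lower. Ccr2, the receptor for the chemokine CCL2, averaged 0.236 CPM per kb and lay below Lyve1 in 22 of 23 cords. Ms4a7, a membrane protein of the MS4A family, averaged 0.138 CPM per kb and lay below Ccr2 in all 23. Ly6c2, a GPI-anchored surface protein of inflammatory monocytes, was the lowest at 0.125 CPM per kb and lay below Ms4a7 in 16. Ly6c2 rested on 14 to 114 counts per cord, and Mrc1 on 335 to 797, so the relative counting error of Ly6c2 was the larger.

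Markers of platelets and lymphatic endothelium were measured in the same cords, and they ranged widely. Of 6 platelet markers 4 passed the filter, and the 6 summed to 4.89 to 7.50 CPM per cord. Ppbp, a platelet chemokine beside Pf4, averaged 0.348 CPM, Itga2b 4.12 CPM and Gp1ba 1.58 CPM, against 0.964 CPM for Pf4, and Gp6 and Gp1bb, platelet receptors, were too low to pass the filter. Of 4 lymphatic endothelium markers 3 passed the filter, and the 4 summed to 57.4 to 76.1 CPM per cord. Prox1, which glia and neurons also express, averaged 53.2 CPM, Pdpn 8.02 CPM and Flt4 5.91 CPM, while Ccl21a, the chemokine of lymphatic vessels, ranged from 0 to 4 counts per cord. The part of these cells in the Pf4 and Lyve1 values was not tested.

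Ly6c2 needs care because it has a near copy, Ly6c1, an endothelial gene. Ly6c2 lay at 0.125 CPM per kb, against 24.2 CPM per kb for Ly6c1. In the reference transcripts (GENCODE M21, GRCm38), 32.6% of the 50-base windows of Ly6c2 were found unchanged in Ly6c1, and 15.8% of the 100-base windows. The start of the coding sequence is shown because it shows how closely the pair match: the first 90 coding bases differ at 6 positions, in capitals.
Ly6c2: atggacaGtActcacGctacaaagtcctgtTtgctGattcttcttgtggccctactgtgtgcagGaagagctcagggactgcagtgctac
Ly6c1: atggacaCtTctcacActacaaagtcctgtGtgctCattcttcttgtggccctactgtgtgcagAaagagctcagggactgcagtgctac
Reads in the shared stretches may be dropped as multi-mapped or counted for the wrong gene, so the Ly6c2 values are uncertain. The effect of this was not tested.

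The promoters of 8 of the 9 genes are in the RefSeq table (GRCm38.p6), each as 250 bases before to 50 bases after the start. They were searched on both strands for 2 motifs of macrophage transcription factors: GAGGAAGT, bound by PU.1, and TGCTGAC, a MAF half-site. The PU.1 letters were found in 2 of 8, against 3.20% of 32851 windows of the same length, and the MAF letters in 1 of 8, that of Cbr2, against 4.67%. The promoters with the PU.1 letters were those of Pf4 and Ly6c2, shown with the match on either strand in capitals.
Pf4 (chr5:90772185-90772484, + strand): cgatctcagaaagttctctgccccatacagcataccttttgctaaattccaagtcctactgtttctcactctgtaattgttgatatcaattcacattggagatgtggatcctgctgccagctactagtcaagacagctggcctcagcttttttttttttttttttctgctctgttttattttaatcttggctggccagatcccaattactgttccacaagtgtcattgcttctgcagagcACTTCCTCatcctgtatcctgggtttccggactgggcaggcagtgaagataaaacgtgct
Ly6c2 (chr15:75111922-75112221, − strand): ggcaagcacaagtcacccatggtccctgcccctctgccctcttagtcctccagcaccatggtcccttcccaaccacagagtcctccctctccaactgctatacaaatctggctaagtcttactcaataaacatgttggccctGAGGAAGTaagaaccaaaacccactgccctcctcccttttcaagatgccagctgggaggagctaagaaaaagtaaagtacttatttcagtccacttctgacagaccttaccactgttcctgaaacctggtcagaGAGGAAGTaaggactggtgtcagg
The match is a description of letters, not of a bound site.

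The first question was whether removing the receptor from myeloid cells changed these genes. None of the 9 was called in knockout against wild-type cords at an adjusted p under 0.05 (edgeR), where 0.0118% of all genes tested were called, and 0 of 9 had an unadjusted p under 0.05, against 3.36% of all genes. DESeq2 and limma voom also called 0 of 9, and all 9 had an edgeR adjusted p of 0.9997. By sign, 3 were higher and 6 lower in knockout cords, with a median log2 fold change of -0.017 over the 9 and -0.00072 over all genes.

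The scavenger and endocytic receptors had nearly equal levels in the 2 genotypes. Mrc1 (GRCm38 chr2:14229392-14332057) ranged from 4.43 to 6.01 CPM in knockout cords, with a median of 5.43, and from 3.54 to 6.99 CPM in wild-type cords, with a median of 5.31. The groups overlapped over the whole knockout range. The log2 fold change was 0.018 ± 0.083, with a 95% interval from -0.15 to 0.19. Cd163 (chr6:124304656-124330527) differed by 0.042 ± 0.097 and Lyve1 (chr7:110850607-110863239) by -0.0090 ± 0.13. Ms4a7 (chr19:11321039-11336146) differed by -0.017 ± 0.20. The intervals of Mrc1, Cd163 and Lyve1 lay within -0.28 and 0.26, so a change larger than that falls outside them.

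The secreted and cytosolic products showed intervals that also spanned 0. F13a1 (chr13:36867178-37050244) ranged from 3.85 to 5.96 CPM in knockout cords, median 4.81, and from 3.32 to 6.35 CPM in wild-type cords, median 5.37. Its log2 fold change was -0.077 ± 0.083. Pf4 (chr5:90772435-90773383) differed by -0.14 ± 0.16 and Cbr2 (chr11:120729489-120732114) by 0.13 ± 0.10. The spread was not wider in 1 genotype throughout: Pf4 had an SD of 0.317 CPM in knockout cords and 0.198 CPM in wild-type cords, and Cbr2 one of 0.148 CPM in knockout cords and 0.262 CPM in wild-type cords.

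The monocyte genes had the widest intervals. Ccr2 (chr9:124101950-124113557) ranged from 0.729 to 2.96 CPM in knockout cords, median 1.35, and from 0.867 to 3.21 CPM in wild-type cords, median 1.56. It differed by -0.19 ± 0.26, with an interval from -0.74 to 0.36. Ly6c2 (chr15:75108158-75111970) ranged from 0.163 to 0.459 CPM in knockout cords, median 0.316, and from 0.148 to 1.00 CPM in wild-type cords, median 0.268. It differed by -0.35 ± 0.25, with an interval from -0.87 to 0.17, so no change and a fall of nearly that lower bound could not be told apart.

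**Figure D1:**
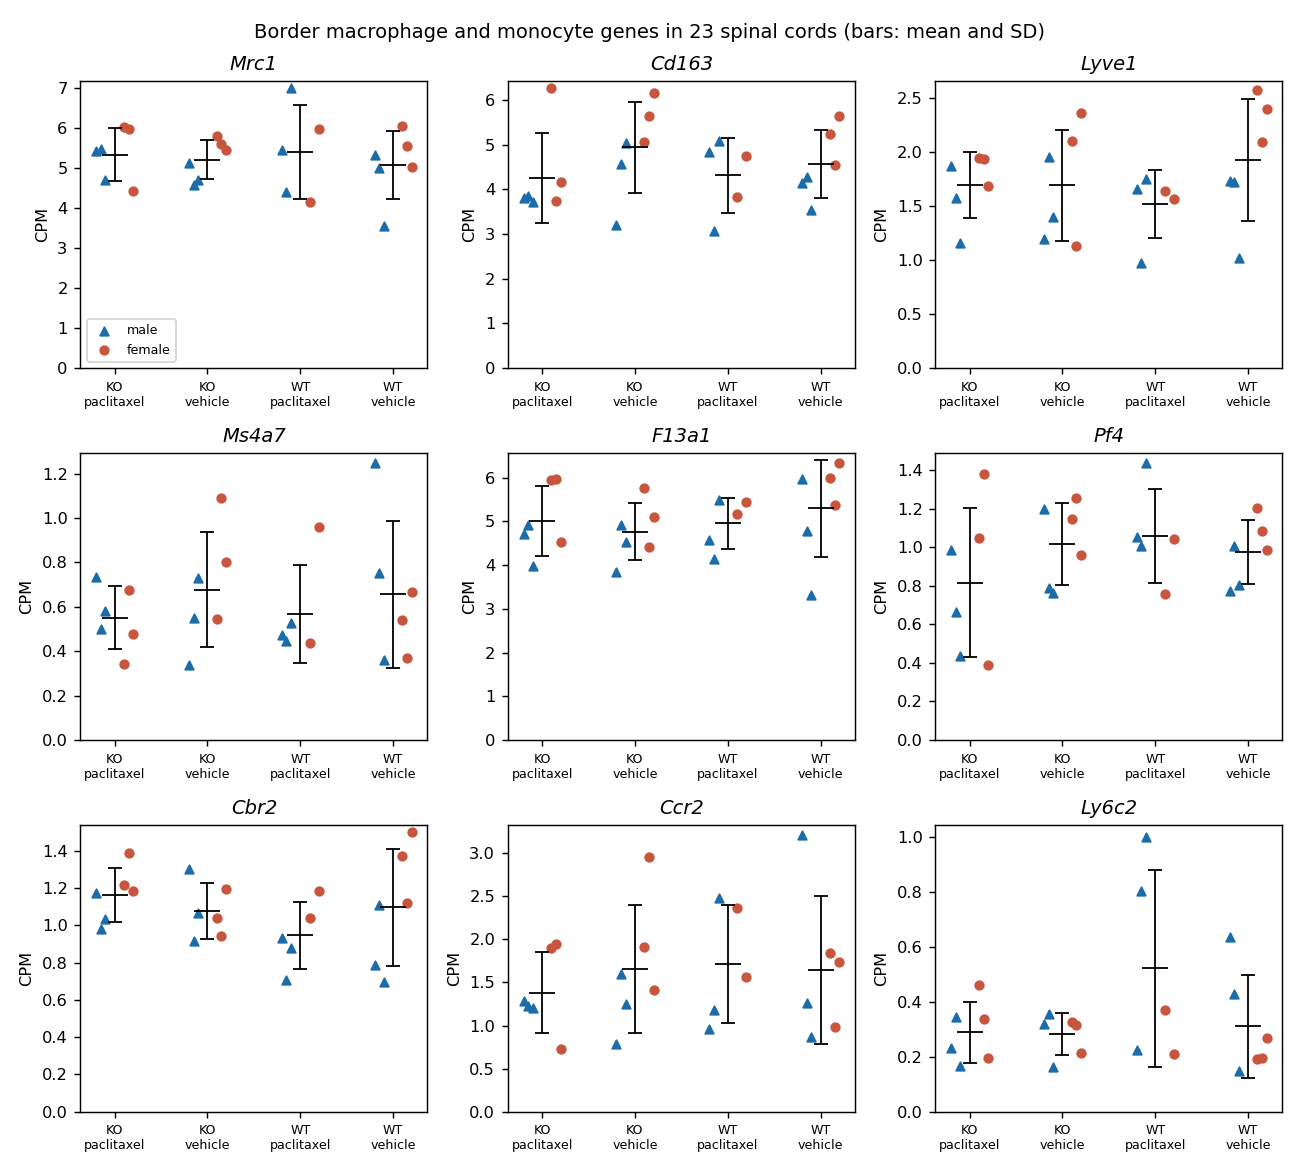
Each panel gives 1 gene, with CPM on the vertical axis and the 4 combinations of genotype and drug on the horizontal axis; triangles are males, circles females, and bars mean and SD. In every panel the knockout and wild-type cords overlap, and the 2 highest Ly6c2 values, 1.00 and 0.802 CPM, are wild-type males with paclitaxel.

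The other genes of the same cells, from lists chosen with earlier results of these data known, were tested in the same fit. Of the 12 other border macrophage genes 11 passed the filter, of which 2 were higher and 9 lower in knockout cords, with 0 called and a median log2 fold change of -0.11. Clec12a, an inhibitory C-type lectin receptor, had the smallest p, at -0.35 ± 0.18 with an adjusted p of 0.9997 (edgeR). Of the 10 other monocyte genes 1 was higher and 9 were lower, with 0 called and a median of -0.23. Spn, the sialoprotein CD43, had the smallest p of these at -0.57 ± 0.32. Over all genes 50.5% were lower in knockout cords. Erythroid (5 of 5), neutrophil (6 of 6) and pan-macrophage (5 of 5) markers were also lower, with 0 called. Oligodendrocyte markers were higher in 4 of 4, with 0 called. The part of blood cells in these directions was not tested.

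Knockout and wild-type cords were also compared under each treatment. Under vehicle, 0 of 9 were called, where 0.00788% of all genes were called, and under paclitaxel 0 of 9, where 0.00394% were. Under paclitaxel, Cbr2 ranged from 0.979 to 1.39 CPM in the 6 knockout cords, with a median of 1.18. In the 5 wild-type cords it measured 0.705, 0.877, 0.931, 1.04 and 1.19 CPM, so 2 of the 5 lay within the knockout range. Its log2 fold change was 0.26 ± 0.15, with an unadjusted p of 0.0953 and an adjusted p of 0.813 (edgeR). Ly6c2 differed by -0.63 ± 0.36, with an unadjusted p of 0.0952 and the same adjusted p.

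The second question was whether paclitaxel changed these genes. None of the 9 was called in paclitaxel against vehicle cords, where 0.0197% of all genes were called, and 0 of 9 had an unadjusted p under 0.05, against 10.2% of all genes. DESeq2 and limma voom also called 0 of 9. By sign 2 were higher and 7 lower with paclitaxel, and the median log2 fold change was -0.061 over the 9 and 0.0061 over all genes.

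Mrc1 ranged from 4.14 to 6.99 CPM with paclitaxel, median 5.44, and from 3.54 to 6.04 CPM with vehicle, median 5.21. The groups overlapped over most of their range, and the log2 fold change was 0.059 ± 0.083. Cd163 ranged from 3.07 to 6.26 CPM with paclitaxel, median 3.85, and from 3.20 to 6.15 CPM with vehicle, median 4.80. It had the lowest p of the 9, with a log2 fold change of -0.14 ± 0.097 (unadjusted p = 0.158, adjusted p = 0.653, edgeR). Without the 3 cords of highest erythroid sum, which include the highest Cd163 value, it was -0.24 ± 0.090 (unadjusted p = 0.0150, adjusted p = 0.483, edgeR). Lyve1 differed by -0.14 ± 0.13 and Ms4a7 by -0.21 ± 0.20.

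F13a1 was at 4.98 ± 0.67 CPM with paclitaxel (SD, n = 11) and 5.03 ± 0.92 CPM with vehicle (n = 12), a log2 fold change of -0.00048 ± 0.083. Pf4 differed by -0.12 ± 0.16 and Cbr2 by -0.022 ± 0.10. Ccr2 differed by -0.061 ± 0.26, with an interval from -0.61 to 0.49. Ly6c2 ranged from 0.166 to 1.00 CPM with paclitaxel, median 0.337, and from 0.148 to 0.635 CPM with vehicle, median 0.291. Its log2 fold change of 0.30 ± 0.25 had an adjusted p of 0.734 (edgeR).

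**Figure D2:**
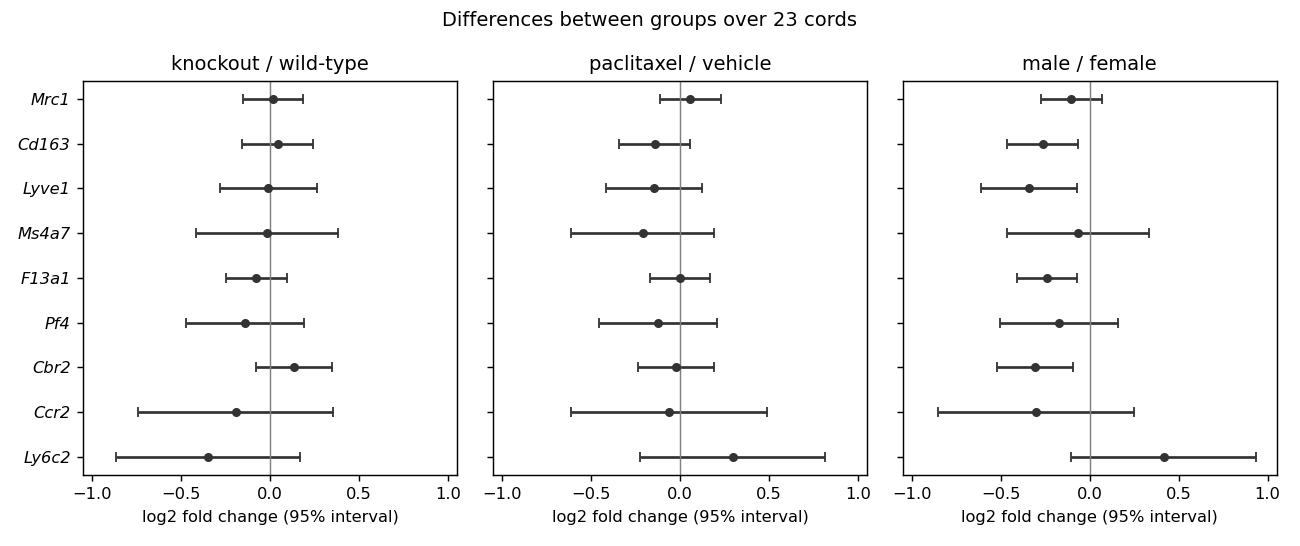
The horizontal axis is the log2 fold change with its 95% interval, for the 9 genes, in knockout over wild-type, paclitaxel over vehicle and male over female cords. In the first 2 panels every interval spans 0. In the third, those of Cd163, Lyve1, F13a1 and Cbr2 lie below 0.

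Neutrophil markers gave 0 of 6 called with paclitaxel in the same libraries. By sign 6 of 6 were higher, all at an unadjusted p under 0.05, which 10.2% of all genes reached, and their sum ranged from 3.62 to 59.9 CPM with paclitaxel and from 2.25 to 19.3 CPM with vehicle. Of the other monocyte genes 8 of 10 were higher with paclitaxel, with 0 called. Chil3, a chitinase-like protein also made by neutrophils, had the smallest p at 1.03 ± 0.44 (adjusted p = 0.450, edgeR). Of the other border macrophage genes 4 were higher and 7 lower, with 0 called, and Clec4n, the lectin dectin-2, had the smallest p at -0.76 ± 0.29 (adjusted p = 0.361, edgeR). The part of blood cells in these values was not tested.

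Within each genotype the count was the same. In knockout cords 0 of 9 were called for paclitaxel, where 0.0236% of all genes were called, and in wild-type cords 0 of 9, where 0% were. The difference between the 2 responses, tested as the interaction of genotype and treatment, was also called for 0 of 9, where 0% of genes were called.

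Sex is the third factor. None of the 9 was called in male against female cords, where 0.918% of all genes were called. DESeq2 and limma voom also called 0 of 9. At an unadjusted p under 0.05 there were 4 of 9, against 13.2% of all genes, and all 4 were lower in males, against 6.67% of all genes that were lower in males at that p. By sign 8 of 9 were lower in males, with a median log2 fold change of -0.24 over the 9 and 0.0038 over all genes. As these genes vary together between cords, as described later, their count is not that of independent genes.

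F13a1 ranged from 3.32 to 5.97 CPM in males, median 4.64, and from 4.41 to 6.35 CPM in females, median 5.43. The sexes overlapped, with 4 of 12 males below every female and 2 of 11 females above every male. Its log2 fold change was -0.24 ± 0.083 (unadjusted p = 0.00687, adjusted p = 0.172, edgeR). Cbr2 ranged from 0.697 to 1.30 CPM in males, median 0.955, and from 0.943 to 1.501 CPM in females, median 1.19. Here 6 of 12 males lay below every female, and the log2 fold change was -0.31 ± 0.10 (unadjusted p = 0.00620, adjusted p = 0.167, edgeR).

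Cd163 ranged from 3.07 to 5.09 CPM in males, median 4.00, and from 3.73 to 6.26 CPM in females, median 5.05. In 11 of 12 males it lay below the female median. Its log2 fold change was -0.27 ± 0.096 (unadjusted p = 0.0111, adjusted p = 0.207, edgeR). Lyve1 ranged from 0.976 to 1.96 CPM in males, median 1.62, and from 1.13 to 2.58 CPM in females, median 1.94. Of the 11 females 5 lay above every male, and the log2 fold change was -0.34 ± 0.13 (unadjusted p = 0.0155, adjusted p = 0.239, edgeR).

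With no filter on low counts, Cd163 and F13a1 were called as lower in males (adjusted p = 0.0209 and 0.0346, edgeR). That fit also called more of all genes than the 233 of the main fit. It did so for knockout and for paclitaxel as well, with the counts given in the closing section. Whether the 2 calls are particular to these genes was not tested, and neither was why the filter moves the p-values. The other 5 did not reach an unadjusted p under 0.05. Mrc1 differed by -0.10 ± 0.082, Ms4a7 by -0.067 ± 0.20, Pf4 by -0.17 ± 0.16 and Ccr2 by -0.30 ± 0.26. Over the 23 cords Ly6c2 went the other way at 0.42 ± 0.25 (adjusted p = 0.507, edgeR). Without the 3 cords of highest erythroid sum, Ccr2 differed by -0.58 ± 0.20 (unadjusted p = 0.0112, adjusted p = 0.217, edgeR). F13a1 then differed by -0.31 ± 0.080 (adjusted p = 0.0649, edgeR). This set of cords was chosen after seeing the data. The cords left out include the males of highest Ccr2, at 3.21 and 2.48 CPM. The same males were highest in F13a1, at 5.97 and 5.49 CPM, so leaving them out lowers the male side of both genes. The female left out had 1.90 CPM of Ccr2 and 5.94 CPM of F13a1.

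The other border macrophage genes gave 1 higher and 10 lower in males, with 0 called, 4 at an unadjusted p under 0.05 and a median of -0.20. Timd4, a receptor for phosphatidylserine, differed by -0.49 ± 0.19 and Siglec1, the sialic acid receptor CD169, by -0.45 ± 0.19. The other monocyte genes gave 9 higher and 1 lower, with 0 called and a median of 0.20. Nr4a1, a nuclear receptor needed for Ly6c-low monocytes and also induced by activity in neurons, differed by 0.28 ± 0.11.

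Markers of meningeal and perivascular fibroblasts were also lower in males in all 6 of 6 genes, with 0 called and none at 0 counts in any cord. Their sum was 166 ± 27.5 CPM in males (range 117 to 206, n = 12) and 180 ± 24.7 CPM in females (range 141 to 228, n = 11). Other lists went either way. Microglia markers were lower in males in 5 of 8 genes and higher in 3, with 1 called as lower (adjusted p = 0.00831, edgeR). Astrocyte markers were lower in males in 4 of 4 genes (0 called). Pan-macrophage genes were higher in 5 of 5 (0 called, median log2 fold change 0.088) and neutrophil markers higher in 6 of 6 (0 called). The pan-macrophage genes summed to 85.3 ± 12.4 CPM in males and 81.1 ± 6.48 CPM in females. With the fibroblast sum as a covariate, the unadjusted p were 0.0284 for Cd163, 0.0310 for Lyve1, 0.0190 for F13a1 and 0.0199 for Cbr2, and the log2 fold changes -0.19, -0.26, -0.18 and -0.26. The adjusted p were then 0.267 to 0.325 (edgeR).

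The interactions with sex gave no call. For genotype it was 0 of 9, where 0.00394% of genes were called, and for treatment 0 of 9, where 4.96% were; the library numbers 1 to 12 and 13 to 24 lie on the 2 sides of the treatment interaction and cannot be told apart from it. For genotype 1 of 9, Ly6c2, had an unadjusted p under 0.05, against 12.6% of all genes, so its share was near the background. It measured 0.163 to 0.354 CPM in knockout males and 0.148 to 1.00 CPM in wild-type males, and 0.194 to 0.459 CPM in knockout females and 0.190 to 0.369 CPM in wild-type females. The interaction was -1.29 ± 0.51 (unadjusted p = 0.0171, adjusted p = 0.297, edgeR). The wild-type males with paclitaxel measured 0.224, 0.802 and 1.00 CPM, and those with vehicle 0.635, 0.429 and 0.148 CPM, so 4 of these 6 lay above every knockout male. Of those 4, the cords at 1.00 and 0.635 CPM also had the erythroid marker sums of 1158 and 890 CPM, and the one at 0.802 CPM the highest neutrophil marker sum, 59.9 CPM. Without the 3 cords of highest erythroid sum the interaction was -0.69 ± 0.52 (unadjusted p = 0.195, edgeR).

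The 9 genes were then compared with each other over the 23 cords. Of the 36 pairs 32 had a positive Pearson r of log2 CPM, and 11 had a permutation p under 0.05 after adjustment over the 36. Lyve1 and F13a1 were the closest pair (r = 0.83, rho = 0.79, adjusted permutation p = 0.00072 and 0.00144), and r was 0.77 without the 2 cords farthest from the median and 0.78 after subtraction of the group means. Mrc1 and F13a1 had r = 0.66 (rho = 0.58, adjusted p = 0.0103 and 0.0385), and Mrc1 and Pf4 r = 0.60 (rho = 0.71, adjusted p = 0.0184 and 0.0054, permutation test); without the 2 farthest cords r was 0.58 and 0.67.

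The monocyte pair Ccr2 and Ly6c2 had r = 0.51 (rho = 0.50, adjusted permutation p = 0.0452 and 0.0656). For this pair r was 0.46 without the 2 farthest cords and 0.68 after subtraction of the group means. Ccr2 also varied with F13a1 (r = 0.62, rho = 0.68, adjusted permutation p = 0.0161 and 0.00564, r = 0.59 without the 2 farthest). Ly6c2 had no adjusted p under 0.05 with any of the 7 border macrophage genes. After subtraction of the group means its r with them ran from -0.014 with Cbr2 to 0.60 with F13a1.

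**Figure D3:**
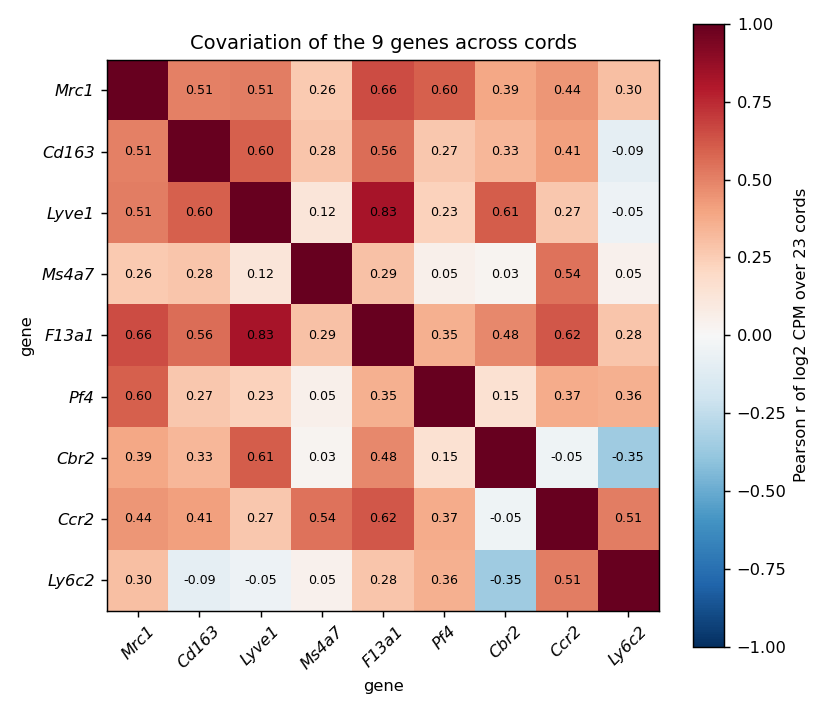
Both axes list the 9 genes, and each cell gives Pearson r of log2 CPM over 23 cords, with red for positive and blue for negative values. The largest is 0.83 for Lyve1 and F13a1, and the row of Ly6c2 holds 3 of the 4 negative values.

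The 9 genes were also set against summed marker lists, those of the other genes of the same cells included. Of 162 relations 8 had an adjusted permutation p of r under 0.05: 3 with fibroblasts, 4 with the other border macrophage genes and 1 with the other monocyte genes. Mrc1 varied with the meningeal and perivascular fibroblast markers (r = 0.76, rho = 0.72, adjusted permutation p = 0.00486 and 0.0105), with r = 0.69 without the 2 farthest cords and 0.89 after subtraction of the group means. F13a1 had r = 0.64 (rho = 0.60, adjusted permutation p = 0.0280 and 0.0557) and 0.50 without the 2 farthest. Lyve1 had r = 0.63 (rho = 0.51, adjusted permutation p = 0.0280 and 0.137) and 0.41 without them. Ly6c2 had r = -0.033 with the same sum (permutation p = 0.881).

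**Figure D4:**
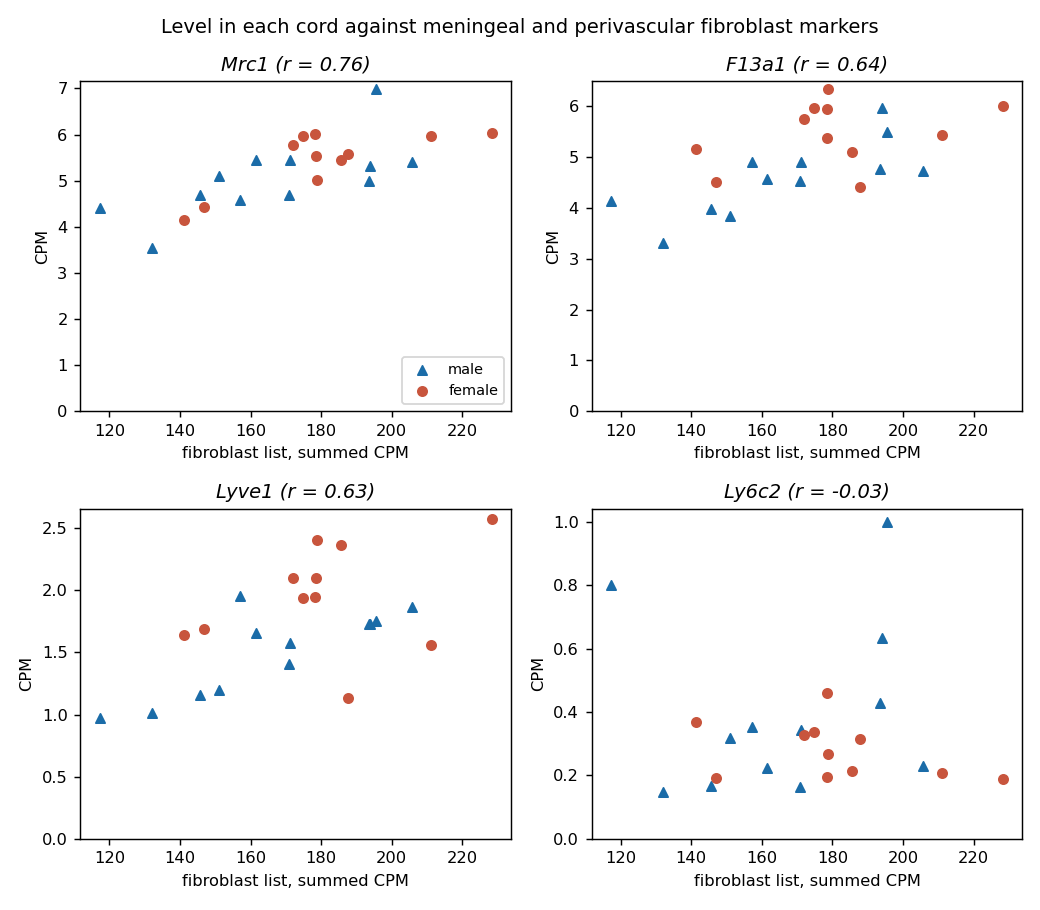
The horizontal axis is the summed CPM of 6 fibroblast markers and the vertical axis the CPM of Mrc1, F13a1, Lyve1 or Ly6c2, with 1 point per cord, triangles for males and circles for females. The r of log2 CPM in the titles is 0.76, 0.64, 0.63 and -0.033.

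The Schwann cell markers gave r = 0.58 with Mrc1 (rho = 0.63, adjusted permutation p = 0.0539 and 0.0454, r = 0.55 without the 2 farthest cords). With Cd163 they gave r = 0.50 (rho = 0.49, adjusted permutation p = 0.119 and 0.169), with r = 0.64 after subtraction of the group means. Oligodendrocyte markers went the other way with both genes. With Mrc1 r was -0.59 (adjusted permutation p = 0.0518), and -0.63 after subtraction of the group means. With Cd163 r was -0.50 (adjusted permutation p = 0.115), and -0.61 after that subtraction. The part of tissue composition in these relations was not tested.

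The other border macrophage genes averaged 40.4 CPM as a sum, of which Dab2, an endocytic adaptor, made 19.02 CPM and Stab1 16.1 CPM. The sum is thus mostly Dab2 and Stab1, and says little of the other genes in the list. This sum varied with Mrc1 (r = 0.74, rho = 0.75, adjusted permutation p = 0.00486 and 0.0105, r = 0.72 without the 2 farthest cords). F13a1 gave the same r of 0.74 (rho = 0.72, adjusted permutation p = 0.0054 and 0.0105, r = 0.69 without them). Ccr2 had r = 0.68 with it (rho = 0.73, adjusted permutation p = 0.0138 and 0.0105, r = 0.71 without them), and Cd163 r = 0.65 (rho = 0.66, adjusted permutation p = 0.0280 and 0.0314, r = 0.54 without them). With the other monocyte genes Ccr2 had r = 0.16 (rho = 0.058, adjusted permutation p = 0.717 and 0.916, r = -0.19 without the 2 farthest). After subtraction of the group means r was 0.45 for Ccr2 and 0.55 for Ly6c2 with that sum. Ly6c2 varied with that sum (r = 0.62, rho = 0.46, adjusted permutation p = 0.0294 and 0.205), and r was 0.40 without the 2 farthest. Nr4a1 made 11.6 of the 17.1 CPM that the monocyte list averaged, so the sum is mostly that gene. Erythroid markers set 3 cords apart, at 890 to 1158 CPM against at most 356 CPM in the other 20, so no pooled correlation is given. Within the other 20, Ly6c2 had r = -0.048 and Ccr2 r = 0.19 with the erythroid sum (permutation p = 0.842 and 0.415).

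The genes closest in log2 CPM, of 15870 compared over the 23 cords, are given as a description for 8 members; Ly6c2, at a mean under 0.5 CPM, was not compared. For Mrc1 they were Nr2f2 (r = 0.80), Serping1 (0.78) and Islr (0.77). For Cd163 they were Slc43a1 (0.79), Stab1 (0.77), a scavenger receptor of macrophages, and Gpt2 (0.76). Lyve1 was nearest to F13a1 (0.83), Iqcg (0.82) and Mgl2 (0.76), a macrophage lectin. Ms4a7 was nearest to Tmem106a (0.79), and Pf4 to Ifitm6 (0.68). F13a1 was nearest to Lyve1, and Cbr2 to Dpt (0.85), which encodes dermatopontin of the extracellular matrix. Ccr2 was nearest to Lilr4b (0.81) and Pirb (0.78), inhibitory receptors of myeloid cells. After subtraction of the group means, the closest to Ccr2 were Fcgr3 (0.91), Ptprc (0.90) and Lyz2 (0.89), all leukocyte genes. Those closest to Cd163 were then Cdh19 (0.88) and Egr2 (0.84), both Schwann cell genes. The closest was Serping1 for Mrc1 (0.90), Cdc45 for Lyve1 (0.82), Cdk3-ps for Ms4a7 (0.84), Ecscr for F13a1 (0.85), Gm37844 for Pf4 (0.82) and Dpt for Cbr2 (0.86).

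Wild-type female paclitaxel replicate 3 lay above the other libraries in 6 of these genes. From library totals it had 12.3 CPM of Mrc1, against 3.52 to 7.11 CPM in the other 23. It had 5.97 CPM of Ccr2, against 0.719 to 3.23 CPM, and 2.53 CPM of Pf4, against 0.382 to 1.46 CPM. Ms4a7 lay at 1.66 CPM against at most 1.26 CPM, Cbr2 at 2.23 CPM against at most 1.497 CPM, and Lyve1 at 2.57 CPM against at most 2.55 CPM. These 6 were above all 23 others, while Cd163, F13a1 and Ly6c2 lay within their range, Cd163 at 3.21 CPM with 21 of 23 above it. With 1 such library there is no replicate check and no test.

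**Figure D5:**
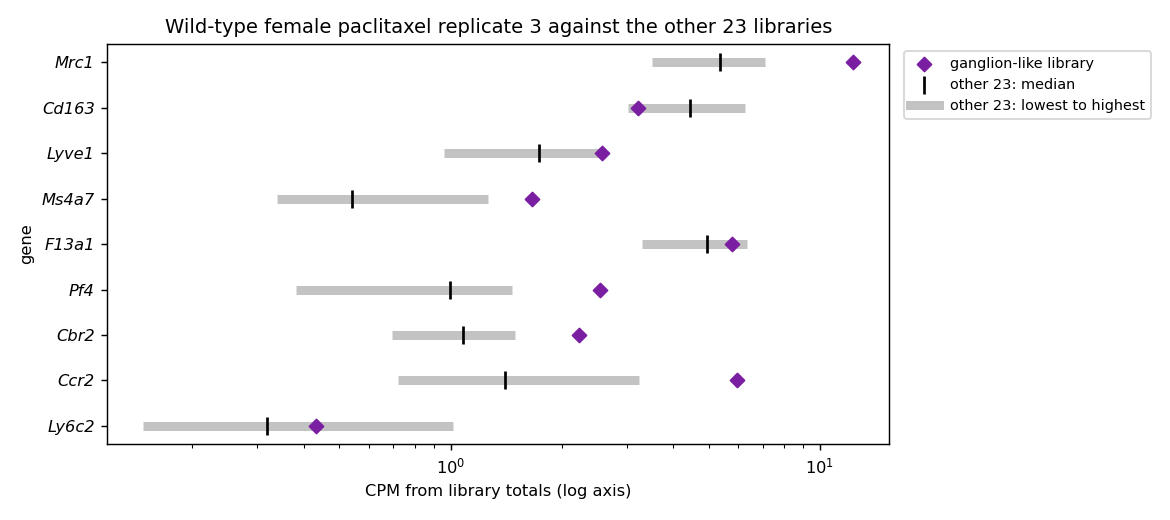
The horizontal log axis is CPM from library totals; diamonds are wild-type female paclitaxel replicate 3, grey bars the lowest to highest of the other 23 libraries and ticks their median. Mrc1, Ccr2, Pf4, Ms4a7, Cbr2 and Lyve1 lie above the bars, and Cd163 at 3.21 CPM near the low end of its bar.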

How the data were processed

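RNA was sequenced from 24 mouse spinal cords. The deposited table holds read counts per gene as whole numbers, raw and not normalized, with the gene length beside them. Per the submitters' processing notes, STAR (version not stated) aligned the reads. The counter was featureCounts 1.6.2, and, per the file headers, exons of the Ensembl GRCm38 annotation, release 96, were summed by gene name with no option for strand, read pairs or multi-mapped reads. Antisense and overlapping genes cannot be told apart without strand. Of the counts from 1 to 20, 34.4% to 37.3% were odd, so the 2 mates of a fragment were apparently counted separately and counts overstate the number of fragments.

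Counts were scaled by TMM (factors 0.981 to 1.02), filtered with filterByExpr and tested in 1 edgeR 4.0.16 quasi-likelihood fit of 8 group means (robust, R 4.3.3) over 23 cords, with Benjamini-Hochberg adjustment over 25372 genes and a threshold of 0.05. An average over groups weights each group equally. Correlations used log2 CPM with a prior count of 2 and 100000 permutations. Alternatives were all 24 libraries, other scalings, DESeq2 1.42.0, limma 3.58.1 (voom), no filter, a replicate block, a fibroblast covariate, each replicate left out and, chosen after seeing the data, 20 cords without the 3 of highest erythroid sum. The fit was also run on simulated counts, drawn from the means and spread of these data with a genotype effect alone. The outcome is not reported here. Genes named beside the 9 members were the 2 of smallest p in their list, the 3 of highest r, or marker genes; some that this rule gives are not reported here. The members and lists were chosen with earlier results of these data known.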

Additional observations from a re-analysis of the deposited data

Results flagged for a closer look

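In a group of 4 to 10 cords, 1 value far from the others was marked by Dixon's criterion, which marks about 1 in 20 groups by chance; 3 were marked in 36 sets of 9 genes and 4 combinations of genotype and drug. Cd163 was at 6.26 CPM in knockout female paclitaxel replicate 1, where the nearest of the other knockout paclitaxel cords had 4.17 CPM. Lyve1 was at 0.976 CPM in wild-type male paclitaxel replicate 2, where the nearest of the wild-type paclitaxel cords had 1.56 CPM. Ms4a7 was at 0.958 CPM in wild-type female paclitaxel replicate 2, where the nearest had 0.5262 CPM.

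Wild-type female paclitaxel replicate 3, the library with a ganglion profile that no comparison uses, lay above all 23 other libraries for Mrc1 (12.3 CPM against at most 7.11 CPM), Lyve1 (2.57 against 2.55 CPM), Ms4a7 (1.66 against 1.26 CPM), Pf4 (2.53 against 1.46 CPM), Cbr2 (2.23 against 1.497 CPM) and Ccr2 (5.97 against 3.23 CPM). Its fibroblast markers summed to 522% of the median of the others, and its microglial markers to 38.0%; their part in these values was not tested.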

How the results depend on the processing

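Standard errors did not follow the counts alone: for knockout against wild-type, Ccr2 at 64 to 298 counts per cord had 0.26, Ly6c2 at 14 to 114 counts 0.25 and Pf4 at 34 to 164 counts 0.16. The count of members called stayed at 0 in all 10 comparisons under every alternative run, except male against female cords with no filter on low counts, where 2 were called, Cd163 (-0.26, adjusted p = 0.0209) and F13a1 (-0.24, adjusted p = 0.0346, edgeR); over their alternatives the adjusted p ran from 0.0209 to 0.575 and from 0.0346 to 0.469. Of 864 log2 fold changes of the members under an alternative, in the 3 comparisons over all animals, 794 kept their direction and 70 reversed, to at most 0.18 in size.

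All genes called for knockout against wild-type numbered 3, and 5 with DESeq2, 99 with no filter and 3 to 5 with each replicate left out (5 without wild-type female paclitaxel replicate 1). For paclitaxel against vehicle they numbered 5, and 0 with all 24 libraries, 3 with library totals alone, 167 with DESeq2, 338 with no filter, 9 with the replicate block, 3 in the 20 cords and 2 to 62 with each replicate left out (62 without knockout male vehicle replicate 1; 10 of 23 omissions moved it over 1.5 times). For male against female they numbered 233, and 28 with all 24 libraries, 583 with DESeq2, 749 with no filter and 65 to 324 with each replicate left out (65 without wild-type female paclitaxel replicate 1; 7 of 23 moved it so). The members at an unadjusted p under 0.05 for paclitaxel numbered 0, and 1 in the 20 cords (Cd163, -0.24) and 0 to 1 with each replicate left out (1 without knockout female paclitaxel replicate 1 or knockout male vehicle replicate 1). The cause of these changes was not tested.

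The replicate block called 0 members in every comparison. No label says that the replicate numbers pair mice, and over 77 same-numbered pairs the correlation of deviations ran from -0.31 to 0.35 (median 0.012). As a hint from the data, not the design, 14 of 23 libraries were closest to one of their own number, against an expected 7.67 if the number played no part. The replicate numbers also rise with the library numbers within 1 to 12 and within 13 to 24. A pairing of mice and the order of the libraries therefore cannot be told apart.

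Log2 fold changes that reversed in the 3 comparisons over all animals, all with no call, were these. For knockout against wild-type, Mrc1 was -0.14 with all 24 libraries. Lyve1 was 0.020 with the fibroblast covariate and 0.050 in the 20 cords. Ms4a7 was 0.011 with voom, 0.046 with the covariate and 0.18 in the 20 cords, and Ccr2 was 0.077 in the 20 cords. For paclitaxel against vehicle, F13a1 was 0.014 with all 24 libraries, 0.0031 with totals alone, 0.012 with voom, 0.047 with the covariate and 0.0025 in the 20 cords. With all 24 libraries Pf4 was 0.057, Cbr2 0.089 and Ccr2 0.13, and with the covariate Cbr2 was 0.011 and Ccr2 0.055. For male against female, Ms4a7 was 0.083 with the covariate. With each replicate left out, knockout values ran from -0.022 to 0.082 for Cd163, -0.065 to 0.056 for Lyve1, -0.041 to 0.088 for Mrc1 and -0.13 to 0.15 for Ms4a7. Paclitaxel values ran from -0.056 to 0.028 for Cbr2, -0.20 to 0.12 for Ccr2, -0.050 to 0.053 for F13a1 and -0.017 to 0.11 for Mrc1, and the sex value of Ms4a7 from -0.19 to 0.10. For the interaction of sex and genotype, in the 20 cords Mrc1 was 0.098 (-0.096 in 23), Cd163 0.031 (-0.18), Ms4a7 0.0039 (-0.18) and Ccr2 0.24 (-0.49), and with the covariate F13a1 was -0.031 (0.011), all with no call.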
